A study of Homo sapiens with 16 samples.

Results

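Soft-selected cells were compared with ancestral cells on soft extracellular matrix (ECM) in 8 of the 16 RNA-seq libraries of the series, 4 from each group. Both groups were wild-type MDA-MB-231 cells, a human breast carcinoma line, on polyacrylamide gels of 1 kPa that carried type I collagen. Soft-selected cells had been passaged on such gels for 75 days, about once a week, while ancestral cells came from the starting population and were not selected. The 4 libraries of stiff-selected cells and the 4 of ancestral cells on stiff ECM (308 kPa) were used to estimate gene variances and for 1 comparison at the end. The comparison asks which genes differ between a population kept on soft ECM and the population it was drawn from. It covered 12443 of the 19468 genes in the table, those with an FPKM (fragments per kilobase, normalized to library size) of at least 1 in at least 4 of the 8 libraries.

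Cells sense the stiffness of their matrix through integrins, which couple collagen and fibronectin outside the cell to actin and myosin inside it. The transcriptional coactivator YAP, which works with TEAD factors, is commonly nuclear in spread cells on stiff matrix and cytoplasmic in round cells on soft matrix. A carcinoma cell line is a mixture of subclones, so that prolonged culture can change both the state of cells and which subclones make up the population.

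Library project, as named in the labels, split the libraries exactly as selection did, and neither can be told apart from the other in any result given here. The sources do not say whether the 4 libraries of a group came from separate cultures or lines, so the p-values reflect the scatter among these libraries alone, part or all of which may be technical. Reads in genes, recovered from the FPKM, numbered 34284808 to 44279033 in soft-selected libraries and 43475908 to 55473033 in ancestral libraries. The median over genes of the SD on the log2 scale was 0.128 and 0.073. The line's mesenchymal markers VIM, CD44, AXL and ZEB1 were present in all 8 libraries, with VIM at an FPKM of 2070 to 2430. ESR1 and PGR, the hormone receptors absent from this line, were at 0.0777 or below. SPARC, also chosen as a marker of this line, was nearly absent at 0.0654 to 0.31, whereas EPCAM was measured at 7.04 to 10.4 and GATA3 at 5.11 to 15.4. In bulk RNA, fewer cells that express a gene and less of its RNA per cell cannot be told apart.

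Selection on soft ECM went with many small changes and a few large ones. With limma on log2(FPKM + 1) and a Benjamini-Hochberg adjusted p under 0.01, 2655 genes (21.3%) were higher and 1938 (15.6%) were lower in soft-selected cells. The median size of the log2 fold change among called genes was 0.44, and 173 higher and 195 lower genes changed by at least 2-fold. Over all genes tested the median log2 fold change was 0.04. On this scale the fold change of a gene with a low FPKM is understated. The groups did not overlap for 2541 of the higher and 1838 of the lower genes. Counts in the gene lists below are to be read against the shares of all genes tested, 21.3% higher and 15.6% lower.

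On the log2(FPKM + 1) scale the largest rise was that of RGS5, a regulator that shortens G protein signaling and marks pericytes. Its FPKM was 55.7, 33.8, 34.5 and 31.0 in the 4 soft-selected libraries and 3.98, 3.94, 2.64 and 3.796 in the ancestral ones, so every soft-selected library was far above every ancestral one (3.09 on the log2 scale with an SE of 0.16, limma adjusted p = 5.8e-10). TULP2, a member of the tubby-like family, had an FPKM of 19.3, 18.3, 17.9 and 14.3 in soft-selected cells and 1.38 to 1.68 in ancestral cells (2.84 on the log2 scale with an SE of 0.09, limma adjusted p = 1e-12). CST1, a cystatin that is secreted and blocks cysteine proteases, rose in all 4 libraries but by unequal amounts, with an FPKM of 267, 297, 264 and 92.3 against 21.8 to 27.5 in ancestral cells (3.02 on the log2 scale with an SE of 0.27, limma adjusted p = 1.3e-07). Its reads may be shared with near-identical cystatin genes. MMP1, the interstitial collagenase, rose by 3.03 on this scale. It was ahead of RGS5 by the ratio of mean FPKM (13.3 against 10.8) and also with a pseudocount of 0.1, with TPM and with voom.

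RHOJ, a GTPase of the CDC42 family known from endothelial cells, had an FPKM of 51.6, 61.1, 52.5 and 40.2 in soft-selected libraries and 9.24 to 11.1 in ancestral ones (2.22 on the log2 scale with an SE of 0.11, limma adjusted p = 2.8e-10). ARHGDIB, which encodes a GDP dissociation inhibitor, had 92.7, 172, 174 and 116 against 24.5 to 30.1 (2.25 on the log2 scale with an SE of 0.20, limma adjusted p = 1.5e-07). Neither gene overlapped between groups, which the rule for the genes with the largest changes required. The other 8 of the 14 genes with the largest rise were MDFI, RCAN2, KHDRBS3, SLCO1B3, AIF1L, HECW2, CAMK1G and PDE2A, with log2 fold changes from 1.97 for PDE2A, which degrades cyclic nucleotides, to 2.40 for MDFI, an inhibitor of myogenic transcription factors. RCAN2 inhibits calcineurin, SLCO1B3 is an organic anion transporter and HECW2 a ubiquitin ligase.

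The largest fall was that of RNASE1, a secreted ribonuclease. Soft-selected libraries held 0, 1, 0 and 0 reads of it and ancestral libraries 141, 227, 178 and 177, or an FPKM of 6.71 to 8.69. It was thus near or at the detection limit in every soft-selected library (-3.14 on the log2(FPKM + 1) scale with an SE of 0.20, limma adjusted p = 3.6e-09). MYLK, the kinase that activates myosin light chain, had an FPKM of 4.12, 1.90, 3.75 and 5.47 against 20.6, 20.8, 21.3 and 21.5 (-2.25 on the log2 scale with an SE of 0.19, limma adjusted p = 8.4e-08).

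Several of the other large falls encode secreted or membrane proteins. EFEMP1, an ECM glycoprotein, fell by 2.88, CDH11, a mesenchymal cadherin, by 2.28, CEMIP, which degrades hyaluronan, by 2.24 and NTNG2, a membrane-bound netrin, by 2.15 on the log2 scale. SLC40A1, the iron exporter ferroportin, had an FPKM of 5.79, 3.15, 6.58 and 13.7 against 29.6 to 39.5 (-2.27 on the log2 scale with an SE of 0.33, limma adjusted p = 2.6e-05), a wider spread in soft-selected cells than in ancestral ones. LBH, a transcription cofactor, fell by 2.45, with 15.8 in soft-selected replicate 4 and 4.12 to 7.55 in the other soft-selected libraries. SAA1, an acute-phase apolipoprotein, fell by 2.33, the neuropeptide gene NMU by 2.62 and LGALS12, a galectin, by 2.31. ANXA8 fell by 2.81 and ANXA8L1 fell by 2.73, but these genes are near-identical copies and the split of reads between them is uncertain. The reads of SAA1 are uncertain for the same reason, since SAA2 is a close copy.

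**Figure D1:**
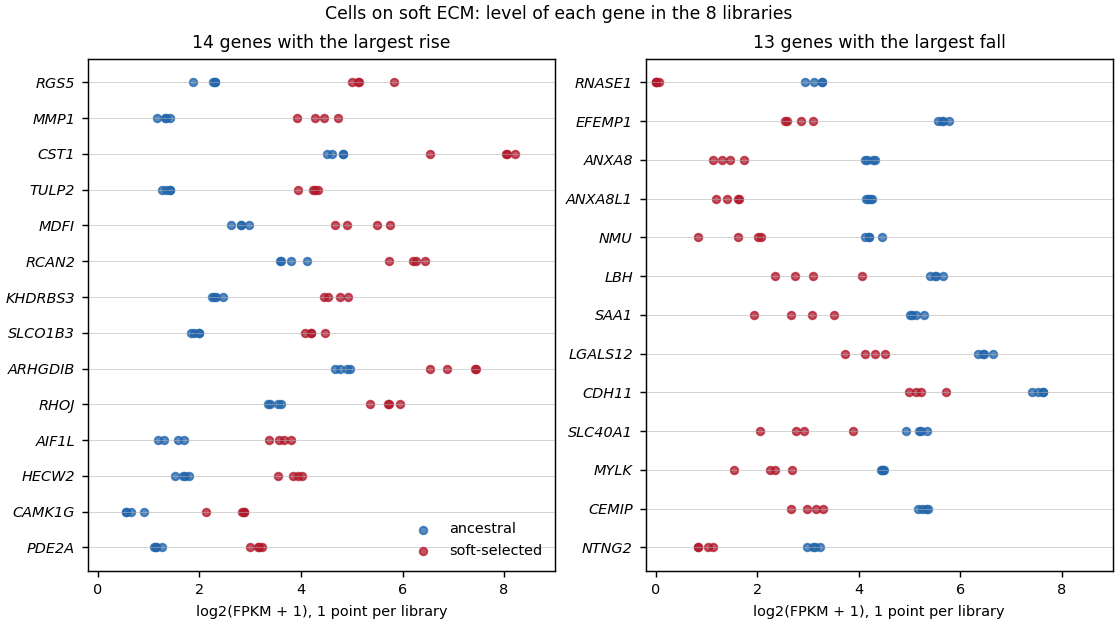
Level of the 14 genes with the largest rise (left) and the 13 reported with the largest fall (right) as log2(FPKM + 1), with 1 point for each of the 4 soft-selected (red) and 4 ancestral (blue) libraries on soft ECM. The groups do not overlap for any of the 27 genes, which the rule for these genes required, and the red points of CST1, LBH and SLC40A1 lie farther apart than the blue ones.

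In FPKM the largest difference was that of TMSB4X. TMSB4X, thymosin beta 4, which sequesters actin monomers, had an FPKM of 3555, 3509, 3089 and 3243 in soft-selected libraries and 8838, 6740, 7778 and 7704 in ancestral ones (-1.21 on the log2 scale with an SE of 0.15, limma adjusted p = 3.7e-06). S100A6, a calcium-binding protein, had 1322, 1110, 1188 and 1077 against 3609, 2626, 3208 and 2479 (-1.33 on the log2 scale with an SE of 0.20, limma adjusted p = 2.7e-05). Both genes were lower in all 4 soft-selected libraries than in any ancestral library. S100A4 fell by 0.96 and S100A10 by 0.59, whereas S100A11 rose by 0.59 on the log2 scale. HMGA1, an architectural chromatin protein, showed the largest rise in FPKM, from 1934 ± 93.8 (SD, n = 4) to 3468 ± 459 (0.83 on the log2 scale with an SE of 0.12, limma adjusted p = 1.8e-05). The other rises reported here were HSP90AA1, TUBA1B, HIST1H2AM, RPS26 and RPL12. The last 4 have close copies in the genome, and their reads are uncertain for that reason.

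RhoGAPs and RhoGEFs changed in both directions. Of 48 RhoGAPs tested, 11 rose and 7 fell (22.9% and 14.6%). ARHGAP42, a RhoGAP that acts on RHOA, had the largest fall among them, from an FPKM of 12.1, 12.5, 12.6 and 12.5 in ancestral cells to 5.50, 4.55, 6.16 and 7.46 in soft-selected cells (-0.97 on the log2 scale with an SE of 0.09, limma adjusted p = 2.9e-07). Among the RhoGAPs that rose were ABR (log2 fold change 0.48), ARHGAP19 (0.40), ARHGAP23 (0.39) and DLC1 (0.36), all without overlap between groups. Summed over the listed RhoGAPs, FPKM was 1530 to 1600 in soft-selected libraries and 1450 to 1520 in ancestral ones. Of 45 RhoGEFs, 13 rose and 10 fell. DNMBP (log2 fold change 0.67) and PLEKHG2 (0.62) were among the rises, and TIAM2 (-0.67) and FGD1 (-0.78) among the falls. RHOA itself fell slightly, from 654 ± 15.3 to 525 ± 28.5 (-0.32 on the log2 scale with an SE of 0.06, limma adjusted p = 0.00014). RHOD fell by 0.79 and CDC42EP5, an effector of CDC42, by 1.01, while DIAPH1, a formin that nucleates actin, rose by 0.36 on the log2 scale. The shares of RhoGAPs and RhoGEFs that rose or fell were near those of all genes tested in the case of RhoGAPs, and above them in both directions for RhoGEFs (28.9% and 22.2%).

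Of 42 actin and myosin contractility genes, 8 rose and 12 fell (19.0% and 28.6%, against 21.3% and 15.6% of all genes tested). ACTA2, smooth muscle actin, rose from an FPKM of 5.14 ± 0.347 to 14.4 ± 1.46 (1.33 on the log2 scale with an SE of 0.08, limma adjusted p = 2.7e-09) and CALD1, caldesmon, by 0.47. FLNA, filamin A, which cross-links actin and binds integrins, had 418, 612, 370 and 408 against 662 to 732 (-0.64 on the log2 scale with an SE of 0.11, limma adjusted p = 0.00018). MSN, moesin, fell by 0.46 and MYH9, the heavy chain of nonmuscle myosin IIA, by 0.26. TMSB4X, FLNA and MSN lie on chromosome X, whose genes had a median log2 fold change of -0.39. Among 25 SRF and MRTF targets, 7 rose and 5 fell.

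Integrin genes split by subunit. Of 14 tested, 4 rose (ITGB7, ITGA1, ITGA6 and ITGA5) and 5 fell (ITGB1, ITGB4, ITGAV, ITGB3 and ITGB5). The groups overlapped for ITGB3, and its call was lost in 9 of 21 alternatives. ITGB5, a partner of ITGAV in vitronectin receptors, had an FPKM of 47.8, 42.6, 38.5 and 47.2 in soft-selected cells and 79.8 to 89.3 in ancestral cells (-0.92 on the log2 scale with an SE of 0.08, limma adjusted p = 6.5e-08). ITGB1, the subunit of collagen receptors, fell by 0.34 from 518 ± 31.4 to 410 ± 11.2, while ITGA1, its partner in a collagen receptor, rose by 0.67 (SE 0.15, limma adjusted p = 0.0014). Of 37 focal adhesion components, 10 rose and 6 fell (27.0% and 16.2%, against 21.3% and 15.6% of all genes tested). ZYX, zyxin, which gathers at adhesions under tension, had 259, 293, 284 and 248 against 157 to 171 (0.74 on the log2 scale with an SE of 0.10, limma adjusted p = 6.5e-06), and TNS3, a tensin, had 30.9 to 37.1 against 85.8 to 95.5 (-1.38 on the log2 scale with an SE of 0.13, limma adjusted p = 2.6e-07). SRC fell by 0.50 on the log2 scale.

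Genes of guidance cues and their receptors fell more often than all genes tested, but rose about as often. Of 32 semaphorins, plexins, netrins, slits and their receptors, 7 rose and 11 fell. These shares were 21.9% and 34.4%, against 21.3% and 15.6% of all genes tested. NRP2, a neuropilin that binds semaphorins and VEGF, rose from an FPKM of 59.3 ± 0.663 to 146 ± 18.02 (1.27 on the log2 scale with an SE of 0.09, limma adjusted p = 7.2e-09), whereas its paralog NRP1 fell by 0.61. PLXNA1, a plexin that partners with neuropilins, fell by 1.16 (SE 0.10, limma adjusted p = 1.2e-07). Of 12 Eph receptors and ephrins, EPHA1 rose and EPHB2, EPHB3, EPHB4 and EPHA4 fell. Of 26 genes of caveolae, lamina and LINC complex, 7 rose and 3 fell (26.9% and 11.5%). CAV2 fell by 0.88 and EHD2 by 1.03, both of which take part in caveolae, while SYNE3 and SYNE1, which encode nesprins, and TOR1AIP1, a protein of the inner nuclear membrane, were among the rises (0.97 for SYNE3).

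Lists of matrix genes differed in how many members changed. Of 34 matricellular proteins and ECM glycoproteins, 10 rose and 13 fell (29.4% and 38.2%). FN1, fibronectin, had an FPKM of 547, 392, 478 and 393 in soft-selected cells and 626, 833, 743 and 821 in ancestral cells (-0.74 on the log2 scale with an SE of 0.17, limma adjusted p = 0.0019). NOV, a CCN family protein, rose from 16.5 ± 0.596 to 46.9 ± 7.49 (1.44 on the log2 scale with an SE of 0.10, limma adjusted p = 7.2e-09). Of 19 proteoglycan and hyaluronan genes, 7 rose and 6 fell. SDC2, syndecan 2, fell by 1.90, GPC1, a glypican, by 1.16 and SDC3 by 0.84 on the log2 scale, while TMEM2, which like CEMIP is known for hyaluronan breakdown, rose by 0.79. Of 19 collagen cross-linking and hydroxylating enzymes 2 rose, LOXL1 (log2 fold change 1.05) and TGM2 (0.30, with overlapping groups and a call lost in 12 of 21 alternatives), and 7 fell, among them LOXL2 (-0.82, SE 0.08, limma adjusted p = 1.8e-07) and LOXL4 (-0.91). Of 40 matrix proteases and inhibitors, 9 rose and 11 fell, with MMP16 (1.08) and the urokinase receptor PLAUR (0.77) among the rises and the lysosomal proteases CTSS (-1.62) and CTSD (-0.84) among the falls.

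**Figure D2:**
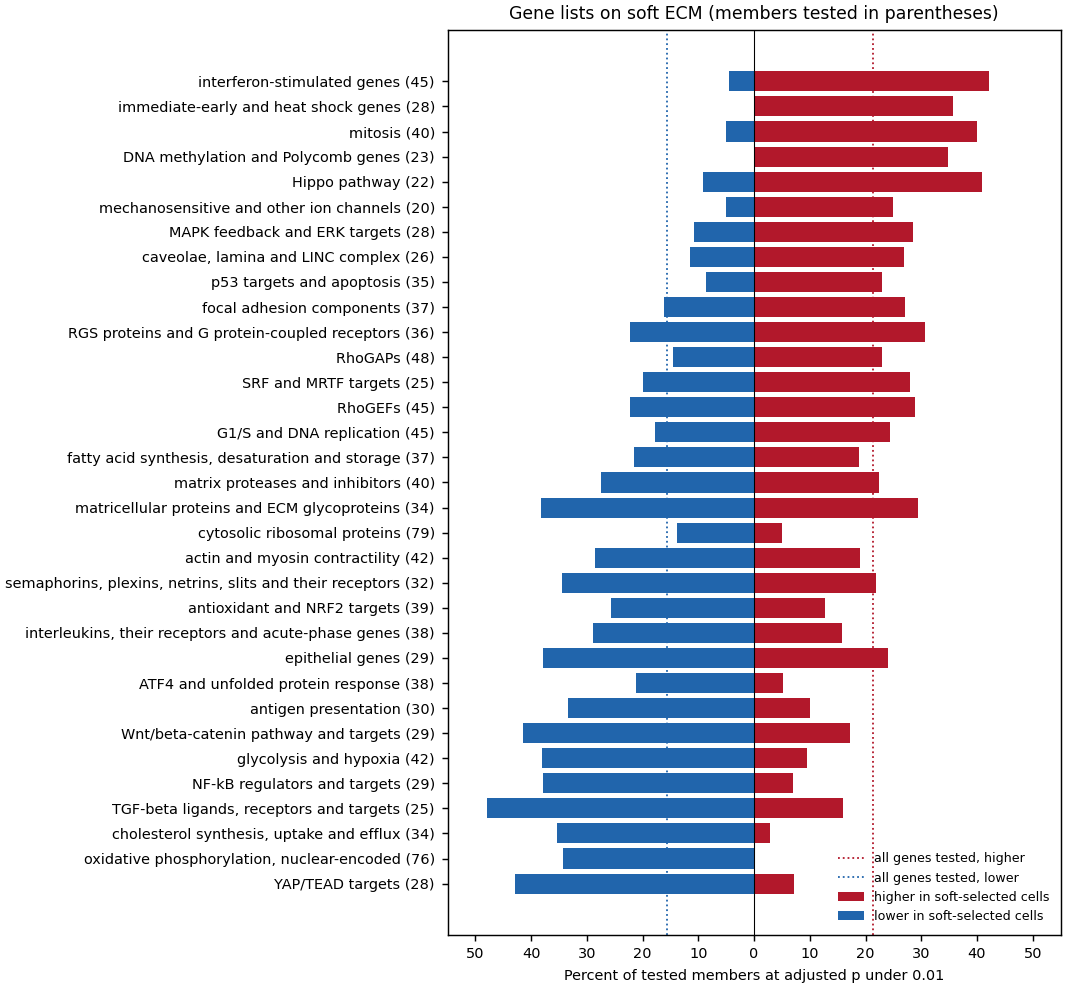
Share of tested members called higher (red, to the right) and lower (blue, to the left) in soft-selected cells for 33 gene lists with at least 20 members tested. Dotted lines mark the shares among all 12443 genes, 21.3% and 15.6%. Interferon-stimulated genes are at the top with 42.2% higher and 4.44% lower, and YAP/TEAD targets at the bottom with 7.14% higher and 42.9% lower.

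More YAP/TEAD targets fell than rose. Of 28 tested, 2 rose (NT5E and DLC1), 12 fell and 14 were not called, with a median log2 fold change of -0.23 over the list. TGFB2 fell by 0.83 (SE 0.08, limma adjusted p = 2.1e-07), NUAK2 by 0.93, IGFBP3 by 0.60 and CYR61, a matricellular CCN protein often used as a readout of YAP, by 0.40. The groups overlapped for CYR61, with an FPKM of 415, 579, 379 and 361 in soft-selected cells and 541 to 593 in ancestral cells, and its call was lost in 9 of 21 alternatives. The FPKM of YAP1 was 165, 143, 151 and 168 in soft-selected cells and 155 to 160 in ancestral cells, and the difference did not pass the test (-0.02 on the log2 scale with an SE of 0.05, limma adjusted p = 0.8). Of 22 Hippo pathway genes 9 rose and 2 fell. Those that rose included TEAD1 and TEAD2, which bind YAP, and STK4 (log2 fold change 0.395), SAV1 (0.44) and TAOK3 (0.35). Those that fell were PTPN14 (-0.26) and MOB1A (-0.16, a call lost in 8 of 21 alternatives). TEAD1 had 200, 194, 183 and 197 against 135 to 148 (0.46 on the log2 scale with an SE of 0.05, limma adjusted p = 5.3e-07), and TEAD2 had 32.1 to 36.8 against 18.9 to 21.2 (0.76, SE 0.06, limma adjusted p = 5.7e-08). With the median of each chromosome removed from each library, an alternative chosen after seeing the data, 5 Hippo genes rose and 5 fell, and 3 YAP/TEAD targets rose and 15 fell.

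TGF-beta and Wnt genes were also lower more often than higher. Of 25 TGF-beta ligands, receptors and targets, 4 rose and 12 fell (median log2 fold change -0.38). TGFBI, a secreted protein named for its induction by TGF-beta, had an FPKM of 39.6, 18.6, 31.6 and 29.7 in soft-selected cells and 80.8 to 85.5 in ancestral cells (-1.48 on the log2 scale with an SE of 0.16, limma adjusted p = 8.5e-07). LTBP1, which stores latent TGF-beta in the matrix, fell by 1.30, the inhibitory SMAD6 by 1.22 and the receptor TGFBR1 by 0.89 on the log2 scale. ID2, an inhibitor of basic helix-loop-helix factors, went the other way with 36.6, 15.3, 35.2 and 35.7 against 7.86 to 9.79 (1.59 on the log2 scale with an SE of 0.22, limma adjusted p = 1.3e-05). Of 29 genes of the Wnt/beta-catenin list, 5 rose and 12 fell. The secreted Wnt inhibitor DKK1 had 58.0 to 74.3 against 164 to 190 (-1.43 on the log2 scale with an SE of 0.09, limma adjusted p = 3.7e-09), and RNF43, a ubiquitin ligase that removes Wnt receptors, fell by 1.84. CTNNB1, beta-catenin, fell by 0.39, while the transcription factors TCF7 (0.74), LEF1 (0.65) and TCF7L2 (0.61) rose.

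Of 28 MAPK feedback and ERK target genes, 8 rose and 3 fell. The feedback inhibitors SPRED3 (log2 fold change 1.19), SPRY4 (0.80), SPRY1 (0.75) and DUSP6 (0.60) rose, and DUSP10, a phosphatase of stress-activated kinases, fell by 1.03 (SE 0.14, limma adjusted p = 1.3e-05). MAP2K1 had an FPKM of 49.1 to 77.8 in soft-selected cells and 54.96 to 59.1 in ancestral cells, and the difference did not pass the test (limma adjusted p = 0.95). ALK, a receptor tyrosine kinase, rose from 0.947 to 1.68 in ancestral libraries to 3.88 to 5.22 in soft-selected ones (1.22 on the log2 scale with an SE of 0.14, limma adjusted p = 2.9e-06). ATF2 rose by 0.29 on the log2 scale (SE 0.08, limma adjusted p = 0.009), a call that was lost in 10 of 21 alternatives. The EGF receptor ligands split, with EREG higher by 1.21 and EPGN by 1.25, and AREG lower by 0.81, TGFA by 0.54 and BTC by 0.49. EGFR fell by 0.33.

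More interferon-stimulated genes rose than fell. Of 45 tested, 19 rose, 2 fell and 24 were not called, and the median log2 fold change over the list was 0.20. OAS2, which makes 2'-5' oligoadenylates on double-stranded RNA, had an FPKM of 26.2, 16.4, 23.5 and 23.6 in soft-selected cells and 9.88 to 11.2 in ancestral cells (0.99 on the log2 scale with an SE of 0.11, limma adjusted p = 1e-06). The RNA sensor DDX58 had 60.5, 72.6, 72.6 and 79.8 against 38.6 to 40.1 (0.83, SE 0.07, limma adjusted p = 7.6e-08). IFI44 rose by 0.98 and IFIT2 by 0.79, all without overlap between groups. The exceptions were IFITM1 and UBE2L6. IFITM1, a membrane protein that blocks viral entry, fell from 57.2 ± 5.75 to 35.3 ± 7.66 (-0.70 on the log2 scale with an SE of 0.16, limma adjusted p = 0.0014). UBE2L6, an enzyme that conjugates ISG15, fell by 0.51, a call that was lost in 10 of 21 alternatives.

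The promoters of such genes often hold the interferon-stimulated response element, whose core repeats GAAA. In RefSeq promoters (GRCh38.p14, 250 bases before the start site), GAAANNGAAA on either strand was found in 10 of the 14 risen genes that matched the table, in 14 of 19 that were not called and in 1 of 2 that fell. Over the 10251 tested genes with a promoter there, 3.35% held it. The match is a description and did not separate the members that rose from those not called. For IFI44L, which rose most of the list (log2 fold change 1.13) and was picked after its value was seen, for IFI44, and for IFITM1, which fell, 100 bases around the match nearest to the start are printed 5′ to 3′ on the strand of the gene, with the match in capitals, at chr1:78620330-78620429 (+), chr1:78649689-78649788 (+) and chr11:313940-314039 (+).
IFI44L: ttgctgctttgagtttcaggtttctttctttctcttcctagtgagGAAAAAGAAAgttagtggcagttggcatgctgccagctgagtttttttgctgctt
IFI44: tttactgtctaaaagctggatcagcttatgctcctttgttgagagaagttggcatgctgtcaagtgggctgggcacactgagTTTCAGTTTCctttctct
IFITM1: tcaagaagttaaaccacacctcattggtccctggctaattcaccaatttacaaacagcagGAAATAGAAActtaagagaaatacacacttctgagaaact

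Inflammatory and antigen presentation genes fell more often than they rose. Of 29 NF-kB regulators and targets, 2 rose (CCL5 and NFKBIZ) and 11 fell, and of 14 chemokine genes 1 rose (CCL5) and 7 fell, with medians of -0.22 and -0.52. VCAM1, an adhesion molecule for leukocytes, had 7, 17, 8 and 31 reads in soft-selected libraries and 334 to 593 in ancestral ones (-2.24 on the log2 scale with an SE of 0.15, limma adjusted p = 3.9e-09). CX3CL1 fell by 1.80, CXCL16 by 1.24, CCL28 by 0.90 and the apoptosis inhibitor BIRC3 by 0.99. Of 30 antigen presentation genes, 3 rose and 10 fell. HLA-B, of the class I complex, had an FPKM of 212, 130, 215 and 159 in soft-selected cells and 375 to 399 in ancestral cells (-1.14 on the log2 scale with an SE of 0.14, limma adjusted p = 2.8e-06). Class I genes are close copies of each other and their reads are uncertain. The cytokine IL18 rose by 1.00, while CSF2 fell by 1.38.

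Genes of oxidative phosphorylation, cholesterol and glycolysis fell more often than they rose. None of 76 nuclear-encoded oxidative phosphorylation genes rose and 26 fell (34.2%, median log2 fold change -0.22 over the list); 3 of these 26 were on chromosome X and 1 on chromosome 21. COX7B, a subunit of cytochrome c oxidase on chromosome X, had an FPKM of 213, 211, 239 and 223 in soft-selected cells and 347 to 399 in ancestral cells (-0.76 on the log2 scale with an SE of 0.07, limma adjusted p = 1.4e-07), and NDUFA4, on chromosome 7, had 261 to 286 against 362 to 412 (-0.49, SE 0.06, limma adjusted p = 6e-06). With chromosome medians removed 30 fell and 1 rose. These genes are short, with a median length behind the FPKM of 468 bases against 1411 over all genes tested, and fold changes moved with length. Among the 1029 tested genes of up to 500 bases the median log2 fold change was -0.09 and 21.2% were lower, and among the 902 genes over 4000 bases it was 0.13 and 14.7% were lower. The part of length in the result was not tested.

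Of 34 genes of cholesterol synthesis, uptake and efflux, 1 rose (MYLIP, which degrades the LDL receptor) and 12 fell. EBP, a sterol isomerase on chromosome X, fell by 0.93, LSS, lanosterol synthase, by 0.51 and the exporter ABCA1 by 1.16 (SE 0.12, limma adjusted p = 4.8e-07). Of 42 glycolysis and hypoxia genes, 4 rose and 16 fell. PGK1, a glycolytic kinase on chromosome X, had an FPKM of 270, 341, 267 and 265 against 632 to 720 (-1.25 on the log2 scale with an SE of 0.11, limma adjusted p = 1.1e-07), and ENO1, enolase, had 1879 to 2246 against 2763 to 3180 (-0.53, SE 0.09, limma adjusted p = 0.00016). HIF1A rose by 0.39 and ADM by 0.75. SLC7A11, the cystine importer, rose from 20.7 ± 1.43 to 48.2 ± 5.46 (1.17, SE 0.08, limma adjusted p = 3.8e-09), and FABP5, a fatty acid carrier, rose by 0.97, while the aldo-keto reductase AKR1C2, which has close copies, fell by 1.63.

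Mitosis genes and genes of early and heat shock responses rose more often than they fell. Of 40 mitosis genes 16 rose and 2 fell (40.0% and 5.00%, median log2 fold change 0.16). BUB1, a kinase of the spindle checkpoint, had an FPKM of 124, 130, 134 and 136 in soft-selected cells and 96.0 to 102 in ancestral cells (0.41, SE 0.05, limma adjusted p = 3.7e-06), TPX2 rose by 0.34 and MYBL2 by 0.45. With chromosome medians removed 10 mitosis genes rose and 3 fell. Of 45 genes of G1/S and DNA replication, 11 rose and 8 fell (24.4% and 17.8%, near the shares of all genes tested). Of 79 cytosolic ribosomal protein genes 4 rose and 11 fell (5.06% and 13.9%, against 21.3% and 15.6% of all genes tested). With chromosome medians removed 0 rose and 17 fell. These genes are also short, with a median length behind the FPKM of 471 bases. The part of length in their changes was not tested, and pseudogenes make their reads uncertain. Of 28 immediate-early and heat shock genes, 10 rose and none fell, among them NR4A2, an orphan nuclear receptor induced early after stimulation (1.37, SE 0.15, limma adjusted p = 1.2e-06), and the small heat shock protein HSPB8 (1.31). Of 23 DNA methylation and Polycomb genes, 8 rose and none fell, with DNMT1 higher by 0.23, EZH2 by 0.33 and PHC2 by 0.49.

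Markers of epithelial and other cell types changed in both directions, and their part in the other results was not tested. Of 29 epithelial genes 7 rose and 11 fell, among them DSC2, a desmosomal cadherin (1.59), upward and ELF3, an epithelial transcription factor (-1.35), and KRT7 (-0.89) downward. SNAI1 rose by 0.67 and ZEB1 by 0.51, both repressors of epithelial genes. Of 9 pericyte and smooth muscle markers tested 7 rose, including RGS5, ACTA2, MCAM (0.97) and HIGD1B (0.92). PDGFRB, the 1 that fell (-0.49), lost its call in 8 of 21 alternatives. CSPG4, also chosen as a pericyte and smooth muscle marker, had an FPKM of 7.92 to 14.6 in soft-selected cells and 14.2 to 15.5 in ancestral cells. With chromosome medians removed, 6 of these markers rose and 2 fell. DES was at an FPKM of 0.041 or below in all 8 libraries. The endothelial genes ESAM (1.07) and ROBO4 (1.05) rose, whereas CDH5 was at 0.0495 or below and VWF at 0.0389 or below. KDR was at 0.166 to 0.416 in soft-selected cells and 0.683 to 0.884 in ancestral cells, and PECAM1 at 1.01 to 1.52 against 1.47 to 1.62. Of the fibroblast markers DCN and DPT were listed at 0 in all 8 libraries, and COL1A2 fell by 1.98 on the log2 scale. PTPRC, which marks blood cells, was at 0.0804 or below.

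The direction of change depended on the chromosome. The genes were assigned to chromosomes by RefSeq, for 12431 of those tested, and this grouping was chosen after seeing the data. Of 392 genes on chromosome X, 17 rose and 210 fell (4.34% and 53.6%), and their median log2 fold change was -0.39. The median difference from the ancestral mean was -0.46, -0.25, -0.44 and -0.41 in the 4 soft-selected libraries, whereas ancestral libraries had -0.02 to 0.01, so the shift was present in every soft-selected library. Chromosome X held 3.15% of tested genes and 10.8% of those that fell. Of 400 genes on chromosome 14, 200 rose and 17 fell, with library medians of 0.23 to 0.28. Of 107 genes on chromosome 21, 2 rose and 47 fell, with library medians of -0.38 to -0.16, and of 449 genes on chromosome 4, 50 rose and 137 fell.

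Of the genes above, TMSB4X, PGK1, FLNA, MSN, COX7B, EBP and FGD1 are on chromosome X. RHOJ, HSP90AA1, HIF1A, SYNE3 and SAV1, which rose, and RNASE1, which fell, are on chromosome 14. With the median of each chromosome removed from each library, 2168 genes were higher and 2166 lower, and 3731 of the 4593 called genes were still called in the same direction. On chromosome X, 61 genes then fell in place of 210, and on chromosome 14, 66 rose in place of 200. In stiff-selected against ancestral cells on stiff ECM, which shared none of these libraries but the same library projects, the medians were -0.44 for chromosome X and 0.23 for chromosome 14, and -0.07 for chromosome 21. Whether DNA copy number differs was not tested, since RNA alone was measured in these libraries.

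**Figure D3:**
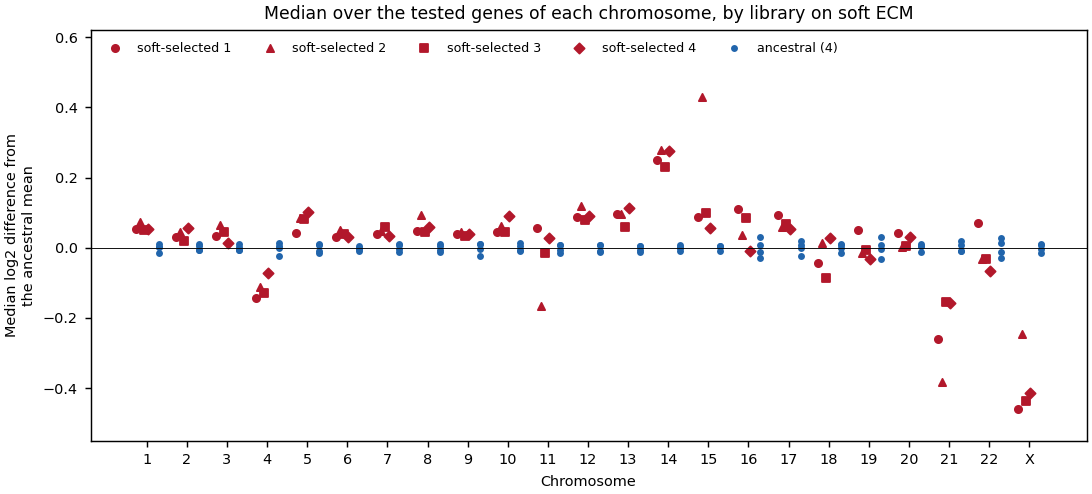
Median over the tested genes of each chromosome of the log2(FPKM + 1) difference from the ancestral mean, for each of the 4 soft-selected libraries (red, 1 shape per library) and the 4 ancestral libraries (blue). Chromosome X lies below 0 and chromosome 14 above 0 in all 4 soft-selected libraries, and replicate 2 alone is at 0.43 for chromosome 15.

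The soft-selected libraries also differed among themselves, and replicate 2 stood apart most often. Of the tested genes, 914 had an SD above 0.3 on the log2 scale over the 4 soft-selected libraries and 81 over the 4 ancestral ones. For 474 of the 914 genes (51.9%) replicate 2 was farthest from the others, and for 247 (27.0%) replicate 4 was. On chromosome 15 the median of replicate 2 was 0.43 and those of the others 0.06 to 0.10, and on chromosome 11 it was -0.17 against -0.01 to 0.06. MAP2K1, on chromosome 15, had an FPKM of 77.8 in replicate 2 and 49.1 to 51.7 in the others. RPL39, on chromosome X, had 1212 in replicate 2 and 517 to 609 in the others, against 1284 to 1554 in ancestral cells. Without replicate 2, 2557 genes were higher and 1950 lower.

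The 8 genes with the widest range among soft-selected libraries were PRSS2, TMEM163, C3, CST6, CDK15, MYH10, SERPINA1 and LCN2. They were chosen for that range, so their narrower range in ancestral libraries follows largely from the choice. PRSS2, a trypsinogen with close copies, had an FPKM of 7.07, 31.4, 14.1 and 2.62 in soft-selected cells and 9.01 to 10.3 in ancestral cells. MYH10, the heavy chain of nonmuscle myosin IIB, had 10.7, 3.57, 9.06 and 18.2 against 15.4 to 16.1. C3, the central complement component, had 16.1, 10.1, 23.2 and 3.99 against 10.2 to 18.2. PRSS2 and TMEM163 were highest in replicate 2, where CST6, CDK15, MYH10 and SERPINA1 were lowest, and C3, SERPINA1 and LCN2 were highest in replicate 3. Class II HLA-DRA, picked after its values were seen, followed with 35.5, 17.9, 67.2 and 22.2 against 34.7 to 39.7. None of the 8 genes differed between groups at the threshold, which their choice by spread favours, since that spread widens the SE.

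**Figure D4:**
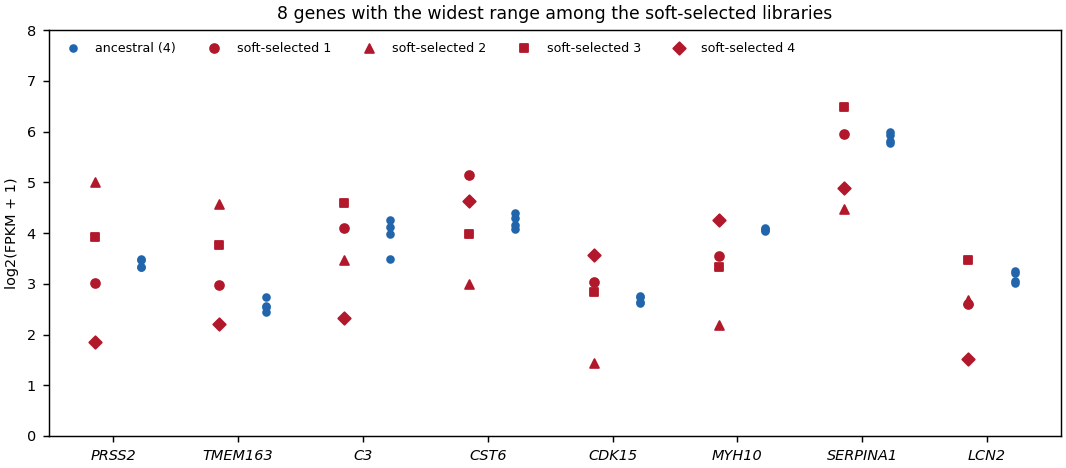
Level as log2(FPKM + 1) of the 8 genes with the widest range among the 4 soft-selected libraries (red, 1 shape per library), beside the 4 ancestral libraries (blue). The red points spread on both sides of the blue ones, with replicate 2 highest for PRSS2 and TMEM163 and lowest for CST6, CDK15, MYH10 and SERPINA1.

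Selection on stiff ECM, measured in other libraries, gave a second set of values for the same genes. The difference between the effect of selection on soft ECM and that on stiff ECM passed an adjusted p of 0.01 for 0 of 12443 genes in limma, with 1614 at an unadjusted p under 0.05 and 40 at an adjusted p under 0.05, and for 0 genes by voom on the recovered reads (1585 and 38). RGS5 came closest, with a log2 fold change of 3.09 on soft and 1.43 on stiff ECM (difference 1.66, SE 0.23, limma adjusted p = 0.014). LGALS12 fell by 2.31 on soft and by 0.66 on stiff ECM (difference -1.65, SE 0.26, limma adjusted p = 0.019), and VSIR, an immune checkpoint ligand, fell by 0.98 and by 0.18 (difference -0.80, SE 0.12, limma adjusted p = 0.018). CST1 rose by 3.02 and 0.68 (difference 2.34, SE 0.38, limma adjusted p = 0.024). Of the 10 genes called on soft ECM with the smallest p for this difference, AVPI1 alone had opposite signs, -0.30 on soft and 0.21 on stiff ECM (difference -0.51, SE 0.09, limma adjusted p = 0.024). The other 5 were TULP2, AIF1L, EEF1A2, RPS6KA2 and LRP3. None of these differences passed the threshold, and the choice among genes called on soft ECM favours larger changes there. MMP1 rose by 3.03 on soft and by 4.27 on stiff ECM (difference -1.24, SE 0.31, limma adjusted p = 0.1).

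**Figure D5:**
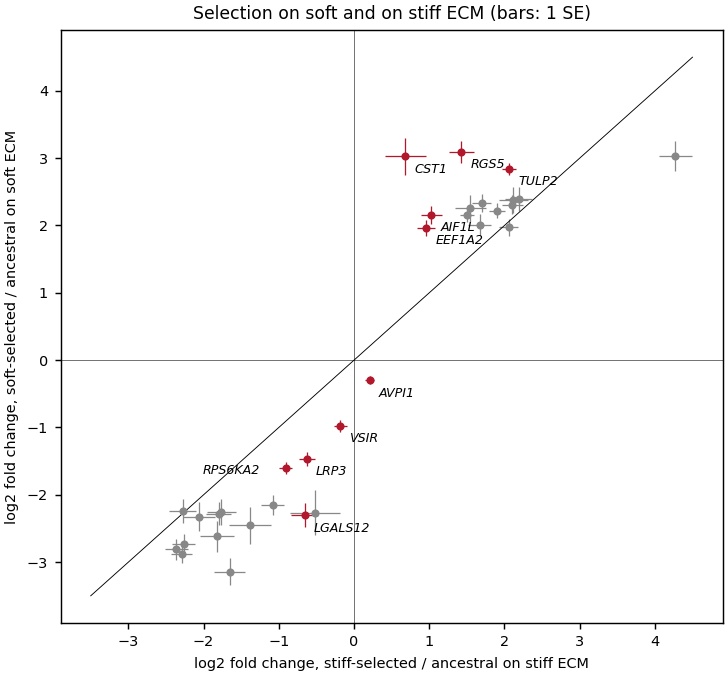
Log2 fold change on soft ECM (vertical axis) against that on stiff ECM (horizontal axis) for the 27 genes reported with the largest changes on soft ECM and the 10 with the smallest p for the difference between the ECM (red, named). Bars are 1 SE and the line marks equal change. CST1 and RGS5 lie above the line and LGALS12 below it.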

How the data were processed

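Total RNA was depleted of ribosomal RNA and sequenced as read pairs. The authors deposited 1 table of FPKM values for 19468 genes in 16 libraries, and every one of its sample columns was read. STAR and hg19 stand in the submitters' processing notes, with no version. The counter, the gene models and the use of strand were not given in the sources used here. Libraries were grouped by their labels, and table columns by names that match them.

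FPKM values moved in steps of 1 read per gene and library, from which reads were recovered for 17735 of 17735 expressed genes (100%, tolerance 0.001 reads). A recovered read may stand for a pair. Between replicates, the chi-square of these reads was 4.57 to 48.5 per degree of freedom, so none was a duplicate. Chromosomes and promoters came from RefSeq (GRCh38.p14) by gene identifier, without coordinates for the hg19 values.

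Genes that reached an FPKM of 1 in 4 or more of the 8 libraries on soft ECM were tested with limma 3.58.1 (R 4.3.3) on log2(FPKM + 1), with a trended prior and 1 fit of 4 group means over 16 libraries. A gene was called where its p, adjusted by Benjamini-Hochberg, was under 0.01. Tables and plots used Python 3.11.15. Steps were tested on simulated data. The text names the 14 genes with the largest rise and the 14 with the largest fall among called genes without overlap and with a mean FPKM of at least 5, the 8 with the largest rise and fall in FPKM, up to 5 called members with the smallest p of each of 51 lists (counts of 5 or fewer in full), the 8 most variable among soft-selected libraries, the 10 with the smallest p for the difference between ECM, and 10 genes that the study discusses. Some genes and lists that this rule takes are not reported here. The members, rules and lists were chosen with earlier results of these data known. Of 1734 list genes, 1732 matched the table. Alternatives were a pseudocount of 0.1, other filters, TPM, median scaling, quantile normalization, the 8 libraries alone, no trend, array weights, a replicate block, voom on recovered reads, other thresholds, and leaving out each library; voom with median scaling and removal of chromosome medians were added after seeing the data.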

Additional observations from a re-analysis of the deposited data

Results flagged for a closer look

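In 9 of 128 groups of 4 libraries examined for 64 named genes (7.03%), 1 library stood apart from the other 3 by Dixon's criterion, where chance gives about 1 in 20 groups. Soft-selected replicate 2 was apart for PGK1 (FPKM 341), RPL39 (1210), MAP2K1 (77.8) and RNASE1 (0.0479, which is 1 read). Soft-selected replicate 4 was apart for CST1 (92.3) and CAMK1G (3.36), and soft-selected replicate 1 for RGS5 (55.7). Ancestral replicate 3 was apart for RGS5 (2.64) and RPL12 (923). PGK1 and RPL39 are on chromosome X and MAP2K1 is on chromosome 15, where the medians of replicate 2 differed from those of the other soft-selected libraries.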

How the results depend on the processing

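The 2655 higher and 1938 lower genes stayed within 1.5 times under all alternatives but a fold of at least 2, which left 173 and 195. Leaving out 1 library gave 2199 to 2557 higher and 1569 to 1950 lower genes. The share of called genes that were higher, 57.8%, was 49.4% with median scaling and 66.6% with TPM. The same-numbered libraries' deviations from their group means correlated at 0.26, -0.08, -0.13 and 0.14, and not every library correlated best with its own number. With 4 libraries a group these correlations cannot settle whether replicate numbers pair the samples, and the main fit used no pairing. With the replicate block 2651 genes were higher and 1976 lower. Of the 299 named genes that were called, 253 kept their call under each alternative in which they were tested. Removing chromosome medians reversed KIF4A (0.024 on the log2 scale) and RPS4X (0.01), both on chromosome X. YAP1 and MAP2K1, which were not called, crossed 0. YAP1 was 0.028 with TPM, 0.026 with quantile normalization, 0.006 without chromosome medians and -0.05 to 0.026 without 1 library. MAP2K1 was 0.035 with TPM and -0.162 to 0.056 without 1 library, the lowest value being without soft-selected replicate 2. RPS26, RPL4, TUBA1B, HIST1H2AM and KCNJ8 lost their call most often, under 13 to 15 of 21 alternatives. Depth limits RNASE1, with 0 or 1 reads in each soft-selected library.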

Other observations

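Among lists not described above, ion channels had 5 higher and 1 lower of 20 tested, with TMC8 (log2 fold change 0.70) and KCNQ5 (0.44) higher and PKD1 lower (-0.33). Of 36 RGS proteins and G protein-coupled receptors, 11 rose and 8 fell (30.6% and 22.2%, against 21.3% and 15.6% of all genes tested). ADORA2A, an adenosine receptor, had an FPKM of 2.20, 1.57, 2.28 and 2.48 in soft-selected cells and 11.6 to 13.1 in ancestral cells (-2.12 on the log2 scale with an SE of 0.18, limma adjusted p = 7e-08), and BDKRB1, a bradykinin receptor, had 0, 6, 1 and 2 reads against 76 to 91. Of 35 p53 targets and apoptosis genes, 8 rose and 3 fell, with GADD45B higher by 1.08 and the BH3-only gene BCL2L11 by 0.83. Of 38 ATF4 and unfolded protein response genes 2 rose and 8 fell, with NUPR1, a stress-induced chromatin protein, lower by 1.62. None of 6 HOX genes passed the test, and of 15 Notch genes 3 rose and 4 fell, with MAML3 higher by 1.12 and MAML2 lower by 0.92. Of 38 interleukins, their receptors and acute-phase genes 6 rose and 11 fell, of 37 fatty acid genes 7 and 8, and of 39 antioxidant and NRF2 targets 5 and 10. In the small lists, 1 of 10 laminin, nidogen and perlecan genes rose and 2 fell, 5 of 10 stem cell and breast lineage markers rose and 2 fell, 3 of 11 EMT genes rose and 2 fell, 2 of 7 fibroblast markers rose and 4 fell, and 2 of 3 blood cell markers and 2 of 3 cancer-testis genes rose, while 1 of each fell.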
